A study of Mus musculus with 7 samples.

Results

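The α and β globin gene loci of mouse were examined for binding of CTCF and of the cohesin subunit Rad21 in adult liver. The 7 globin genes considered were Hba-x, Hba-a1 and Hba-a2 at the α locus on chromosome 11, and Hbb-y, Hbb-bh1, Hbb-b1 and Hbb-b2 at the β locus on chromosome 7. A peak was included where it lay within the span of these genes in genome build mm9 (NCBIM37) extended by 100 kb on each side, which gave an α window at chr11:32076400-32297301 and a β window at chr7:110861038-111101754. These windows held 38 of the 144052 peaks in both pooled lists. At the α locus there were 17 CTCF and 14 Rad21 peaks, and at the β locus 5 CTCF and 2 Rad21 peaks. The authors' list of classified CTCF sites contributed 16 of its 52436 sites to the α window and 3 to the β window.

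The study sequenced chromatin immunoprecipitates (ChIP-seq) from livers of untreated CD-1 males at 8 weeks, in 4 CTCF and 3 Rad21 libraries, to find the CTCF sites that anchor chromatin domains and loops. CD-1 is an outbred stock, and the globin haplotypes of these animals were not determined. The peaks were called on reads pooled over all libraries of a factor, so that each peak has 1 value and the spread between livers is unknown. The sample titles give no liver number to both a CTCF and a Rad21 library. The study describes the data of both factors as matched by liver, except for 1 CTCF library paired with the merged Rad21 reads. Which of these holds for the other libraries could not be settled. Co-binding here therefore means peaks at the same place in the pooled lists. The lists hold no expression values, so the labelled tissue was not checked against marker genes, and in whole tissue fewer cells with a bound site and less binding per cell cannot be told apart.

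Hemoglobin is built from α-type and β-type chains, whose genes lie in separate clusters and are switched on in red cell precursors. Each cluster holds embryonic genes (Hba-x, Hbb-y and Hbb-bh1) followed, along the direction of transcription, by the genes used in the adult (Hba-a1, Hba-a2, Hbb-b1 and Hbb-b2). The α genes depend in erythroid cells on enhancers within introns of the neighbouring gene Nprl3, and the β genes on a locus control region upstream of Hbb-y. CTCF binds an asymmetric motif, and in the loop extrusion model cohesin reels in chromatin until it meets CTCF whose motif faces the loop, so that loops tend to form between a + strand motif and a − strand motif at higher coordinates (convergent order). Hepatocytes, the main cells of adult liver, do not make hemoglobin.

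The motif sequences that the comparisons below turn on are given here from the mm9 reference, 5′ to 3′ on the motif's own strand. The 19 bases in capitals are the best match of a CTCF matrix learnt from TAD anchors on other chromosomes, with 5 bases on each side in lower case, and the coordinates are those of the capitals. Its consensus was NCCANNAGNNGGCNNNNNN, where N stands for a position without a preferred base, and both strands were searched. A match above the cutoff lay within 60 bases of the summit at 57.9% of the 10373 CTCF peaks on chromosomes 7 and 11, where the cutoff had been set to let 5% of control positions 2 kb away pass. These rates do not apply to matches outside that zone, among them those of the Nprl3 lone site, which lay 189 bases from its summit, of the Nprl3 start site at 191 bases, of the Hbq1a site and of the TAD anchor upstream of Sh3pxd2b. The sites that flank the α genes are shown first, because they include all 7 anchors and the co-bound motif sites nearest to Hba-x on either side. At 1 of these, the Nprl3 start site, the deposited motif is on the + strand, opposite to the match printed here.
Distal upstream TAD anchor, chr11:32082697-32082715, + strand: agatgGACAGTAGAGGGAGACAGAgatcg
Snrnp25 intra-TAD anchor, chr11:32105106-32105124, + strand: ccccaGGCAGCAGGAGGCGCCCGCctccc
Rhbdf1 intra-TAD anchor, chr11:32117031-32117049, + strand: aaatgACCACGAGGTGGCGCCAACtgcca
Nprl3 lone site, chr11:32137014-32137032, + strand: aacagGCCTTCAGATGGCAGAATTatact
Nprl3 intra-TAD anchor, chr11:32138651-32138669, − strand: ctgagGCCACCAGAGGGTAGCAGAggcct
Nprl3 start site, chr11:32167735-32167753, − strand: agcgaGCTACTAGAGTGCAGCCAAggcgt
Hbq1b site, chr11:32186928-32186946, − strand: aagagGCCGCCAGGGGGCGCTGCAtcgtt
Hbq1a site, chr11:32200033-32200051, − strand: aagagGCCGCCAGGGGGCGCTGCAtcgtt
Downstream intra-TAD anchor, chr11:32221389-32221407, − strand: tagtgGCCTGCAGGGGGCGCCCCAgagac
Downstream TAD anchor, chr11:32224836-32224854, − strand: gtcccGCCACACGGGGGTGCTCGTcgcct
Sh3pxd2b TAD anchor, chr11:32243102-32243120, + strand: cagtgGACAGAAGAGGGCGCCAGAtcctc
The β sites follow, from the side beyond Hbb-b2 to the side upstream of Hbb-y, because all of those with a deposited motif share a strand.
Olfr67 unclassed peak, chr7:110941607-110941625, + strand: tgcatACCAGTAGGGGGCAGAAGTgttcc
Hbb-b2 flank site, chr7:110955582-110955600, − strand: agtcaACCTCAAGGGGGCAGTATTgagct
Olfr631 lone site, chr7:111061688-111061706, − strand: gtgtaGCCACCAGGGGGAAGGGGTaaccc
Olfr633 site, chr7:111091451-111091469, − strand: atgtgACCAGGAGAGGGCAGCAGAgggtt

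The loci differed in how densely they were bound. The α window held 7.70 CTCF and 6.34 Rad21 peaks per 100 kb, 2.66 and 2.50 times the densities of the whole genome. The β window held 2.08 CTCF and 0.831 Rad21 peaks per 100 kb, which is 0.719 and 0.327 times the genome's densities. With the window extended by 200 kb in place of 100 kb, the β densities were 1.13 and 0.454 per 100 kb, since no further peak was reached. The gene content differed as well, since 13 of the 18 protein-coding genes in the β window were olfactory receptors (Olfr genes), a family used in the sensory neurons of the nose, whereas the α window held 11 protein-coding genes and no olfactory receptor. Whether the neighbouring genes bear on the peak density was not tested.

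Counted per gene, the α genes sat near the middle of all protein-coding genes for CTCF and near the top for anchors. Within 100 kb of Hba-x lay 17 CTCF and 14 Rad21 peaks, and within 100 kb of both Hba-a1 and Hba-a2 lay 16 and 13. The median protein-coding gene had 13 CTCF peaks (quartiles 6 and 20) and 11 Rad21 peaks (quartiles 4 and 18) within that distance. Anchors are the CTCF sites to which the authors assigned a role at the edge of a topologically associating domain (TAD) or of a predicted loop inside one (intra-TAD). Hba-x had 7 anchors within 100 kb, and Hba-a1 and Hba-a2 had 6, against a median of 2 (quartiles 1 and 4), and 4.51% of the 22380 genes had more than Hba-x. The β genes lay at the other end. Hbb-b1 and Hbb-b2 had 4 CTCF peaks and 1 Rad21 peak, Hbb-bh1 and Hbb-y had 5 and 2, and none of the 4 had an anchor, as was the case for 24.3% of all genes.

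**Figure D1:**
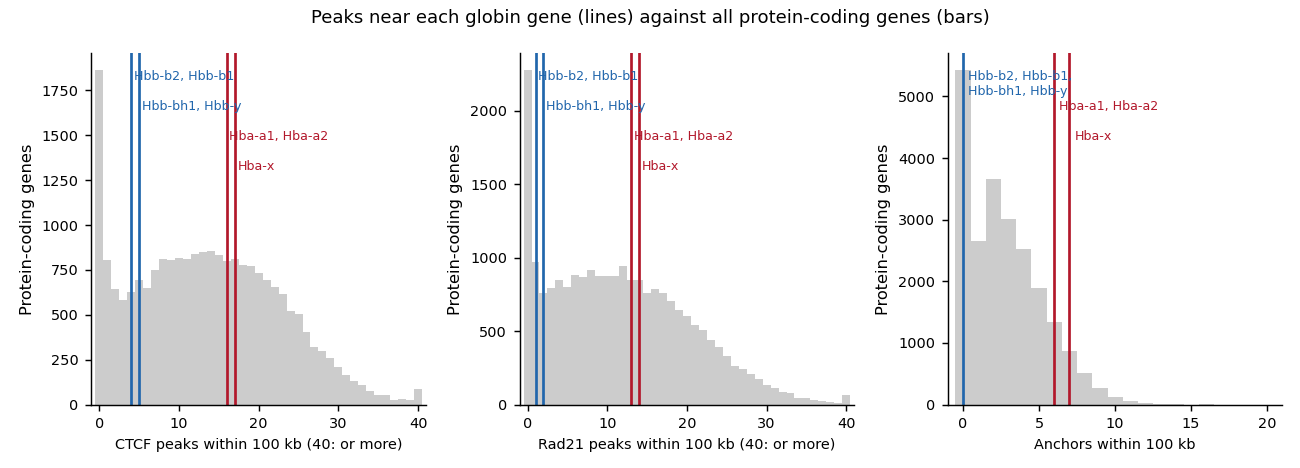
Number of CTCF peaks, Rad21 peaks and anchors (TAD and intra-TAD together) within 100 kb of each protein-coding gene. Grey bars count genes, red lines mark the α genes and blue lines the β genes. The β genes, with 4 or 5 CTCF peaks and no anchor, stand left of the median genes, and Hba-x, with 7 anchors, stands in the right tail of the anchor panel.

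None of the 3 α and 4 β genes considered held a CTCF or Rad21 summit in its body, and none had a summit within 1 kb of its start. In all protein-coding genes a CTCF summit lay within 1 kb of the start at 51.0% and in the body at 61.6%, and a Rad21 summit at 48.5% and 58.7%. The members are 813 to 1717 bp long, and whether gene length bears on the counts in the body was not tested. Of the 8 other protein-coding genes of the α window, 7 had a CTCF summit and 6 a Rad21 summit within 1 kb of the start. Among them were the θ-globin genes Hbq1b, with a CTCF summit in its body and summits of both factors near its start, and Hbq1a, with a CTCF summit near its start. In the β window 0 of 14 other protein-coding genes had either.

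Part of the globin sequence could not be seen by these data. The authors kept reads that mapped to 1 position, and reads were 50 bases long, so a position was counted as visible where its 50 bases occur once in mm9. In the adult α genes Hba-a1 and Hba-a2 only 5.24% and 6.15% of positions were unique, and every repeated position had its copy within the α window. The adult β genes Hbb-b1 and Hbb-b2 were unique at 34.9% and 31.0%, again with each copy inside the β window. By contrast the embryonic genes were open to view, with 97.6% for Hba-x and 100% for Hbb-y and Hbb-bh1. The windows as a whole were unique at 95.2% (α) and 87.5% (β). Within 1 kb of the start the unique share was higher, at 31.2% for Hba-a1, 24.8% for Hba-a2, 66.8% for Hbb-b1 and 60.2% for Hbb-b2. The lack of a summit thus rests on nearly all positions at the embryonic genes, on the larger share of them around the adult β starts, and on the smaller share in the bodies of the adult genes and around the adult α starts. Exact copies alone were counted, so the visible share is an upper limit for reads that mapped with mismatches.

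**Figure D2:**
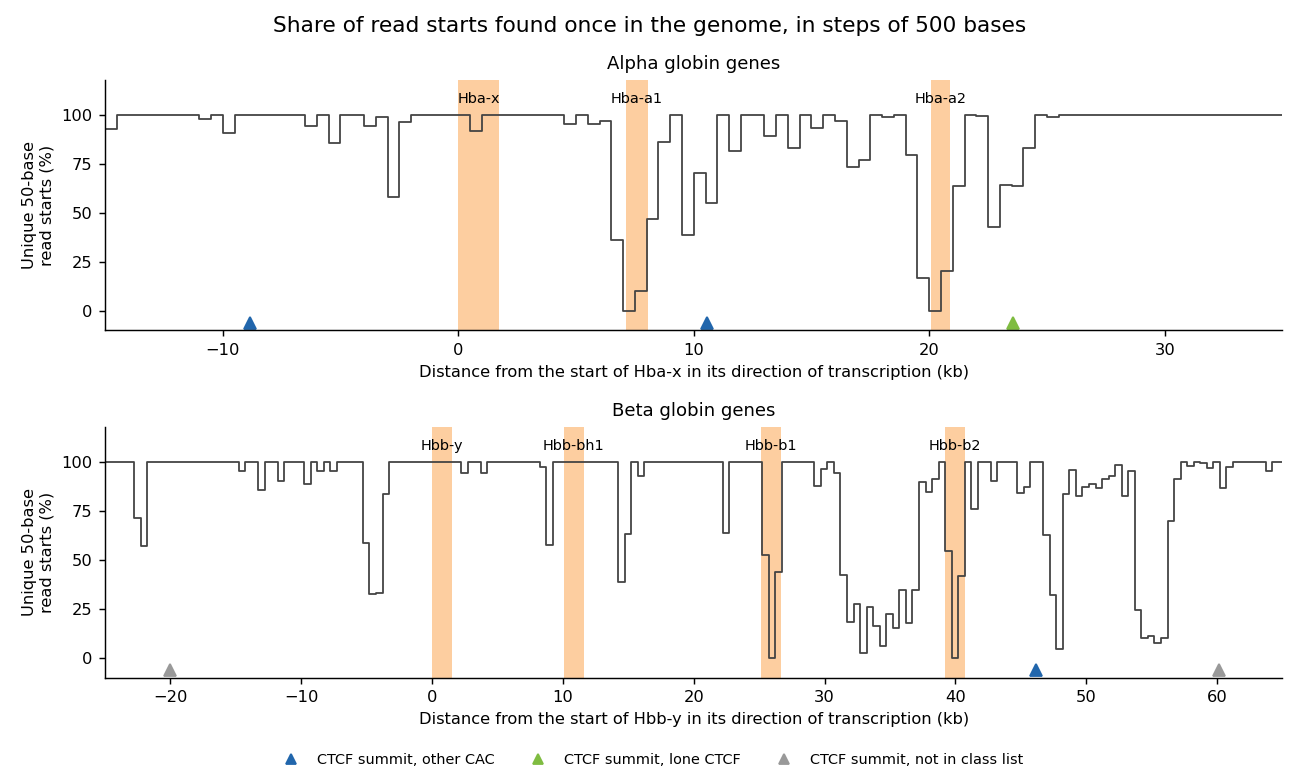
Share of read starts, in percent and in steps of 500 bases, whose 50 bases occur once in mm9, against the distance in kb from the start of Hba-x (upper panel) and Hbb-y (lower panel). Orange bands are the member genes and triangles the CTCF summits coloured by class. The share drops to 0 within Hba-a1, Hba-a2, Hbb-b1 and Hbb-b2, while the bands of Hba-x, Hbb-y and Hbb-bh1 stay near 100%.

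The share of CTCF peaks that shared at least 1 bp with a Rad21 peak (co-bound) was 13 of 17 in the α window (76.5%, 95% Wilson interval 52.7 to 90.4%) and 2 of 5 in the β window (40%, 11.8 to 76.9%). In the whole list it was 67.3%, which lies inside both intervals. These intervals cover counting error only. Of the 14 α and 2 β Rad21 peaks, 1 and 0 had no CTCF peak (cohesin-non-CTCF, CNC), against 22.7% of all Rad21 peaks. This CNC peak was weak, with a score of 40 and 22 fragments at the summit, and lay 265 bp upstream of the start of Sh3pxd2b, which encodes an adaptor protein of podosomes. Its summit was 360 bp from that of a CTCF peak.

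Strength was read from the authors' peak score, which is the −log10 of the q-value multiplied by 10, and from the number of fragments at the summit, which was recovered from the deposited fold and p-value. The median CTCF score was 1876 in the α window and 146 in the β window, against 321 in the whole list. In fragments the medians were 259, 36 and 69. The median Rad21 score was 226.5 in the α window and 164 in the whole list, and the β window held scores of 165 and 101. In fragments the medians were 47.5 (α), 32 (β) and 47 (whole list). By score and fragments the α sites were thus strong in CTCF and near the whole list in Rad21 fragments. By fold over local background the Rad21 medians were 7.06 (α), 5.38 (β) and 4.93 (whole list), so that both windows lay above the whole list. The CTCF medians by fold were 9.93, 5.29 and 6.66. By score, of the 17 α CTCF peaks 13 lay above the median of all CTCF peaks, and 4 were in the top 10%, whereas in the β window 2 of 5 lay above the median and 0 in the top 10%. By fold over local background the order at the top was the other way round, since 11 of the α peaks lay above the median and 1 in the top 10%, against 2 and 2 of the β peaks.

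By the authors' classes the α window had 3 TAD anchors, 4 intra-TAD anchors, 6 further sites bound by CTCF together with cohesin, called other CAC, and 3 lone CTCF sites, with 1 further CTCF peak outside the class list. In the class list as a whole these classes made up 11.2%, 17.3%, 51.4% and 20.1% of sites, and 68.4% of CTCF peaks were in the list at all. The β window had 2 other CAC sites, 1 lone CTCF site and 2 peaks outside the list. A deposited motif was present at 14 of 16 α and 3 of 3 β sites, against 82.6% of all sites. Motif strand was among the authors' criteria for both kinds of anchor, and the scores of both factors were criteria for the intra-TAD kind, so these properties describe the selection.

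Upstream of the α genes the outermost site was a TAD anchor 93.7 kb before the start of Hba-x, with a + strand motif. It had 490 CTCF and 266 Rad21 fragments and its CTCF score of 5521 exceeded 96.5% of CTCF peaks. No gene covered it, and the nearest start of a protein-coding gene was that of Il9r, which encodes an interleukin receptor, 17483 bp away. It carried all 3 flags of the class list, which mark binding of Stag1, Stag2 (alternative subunits of cohesin) and the topoisomerase Top2b in public data.

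A pair of intra-TAD anchors with + strand motifs followed. The outer anchor, 71.3 kb before Hba-x and 275 bp upstream of the start of Snrnp25, a gene for a subunit of the minor spliceosome, had 273 CTCF and 79 Rad21 fragments. The inner anchor, 59.4 kb before Hba-x in an exon of Rhbdf1, a gene for an inactive rhomboid protease, had 259 CTCF and 108 Rad21 fragments. Its motif matched all 8 fixed letters of the consensus and had a deposited motif score of 22.5. The outer anchor's motif score was lower, at 15.3, with nearly the same number of CTCF fragments.

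Weaker sites lay at the starts of genes in between. The site in an intron of Rhbdf1, 81 bp from a start, had 121 CTCF and 46 Rad21 fragments. The site at the start of Mpg, which encodes a DNA repair glycosylase, lay in a coding exon of Mpg and an untranslated exon of Nprl3, with 98 and 45 fragments. It had no deposited motif. Another site of this kind lay 2 bp from a start of Nprl3, 8.85 kb before Hba-x, with 82 and 47 fragments. All were other CAC sites, and at all of them the Rad21 counts were within 2 fragments of each other.

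Nprl3, a subunit of the GATOR complex that restrains mTOR signalling, held the most peaks of any gene in the windows, with 5 CTCF and 3 Rad21 summits. Its strongest site was an intra-TAD anchor in an intron, 37.7 kb before Hba-x, with a − strand motif. It had 575 CTCF fragments, and its 401 Rad21 fragments made it the strongest Rad21 peak of both windows by fragments and by score, with a score of 3618 above 98.5% of all Rad21 peaks. All 3 flags were present. Only 1.46 kb further from the globin genes, in an exon of the same gene, lay a lone CTCF site with a + strand motif and 282 CTCF fragments that had no Rad21 peak and none of the flags. Among the 7668 CTCF peaks of like score (1097 to 2046) 5.45% had no Rad21 peak. The score of this lone site exceeded 76.0% of CTCF peaks, but its fold of 8.85 exceeded 59.8%. The share without Rad21 among peaks of like fold was not tested. The local CTCF background recovered at this site was 31.0 fragments and at its neighbour 30.5, compared with a median of 17.0 over the α window. The 5th Nprl3 peak, 29.1 kb before Hba-x, was weak, with 37 CTCF fragments, no Rad21 and no class. It held a match of the learnt matrix on the + strand.

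The sites closest to the adult α genes were a duplicated pair at the θ-globin genes Hbq1b and Hbq1a, each of which follows an adult α gene. The Hbq1b site lay 8 bp from the gene's start, 2.51 kb beyond Hba-a1, and the Hbq1a site 130 bp upstream of that gene's start, 2.64 kb beyond Hba-a2. Their printed sequences above are identical, and the surrounding 401 bases matched at 96.0%. Both had the same deposited motif score of 21.6 on the − strand. Even so the Hbq1b site had 192 CTCF fragments (fold over local background 22.1) and a Rad21 peak of 40 fragments, and was classed as other CAC, while the Hbq1a site had 43 CTCF fragments (fold 6.29), no Rad21 peak, and was a lone CTCF site. Neither carried a flag.

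The copies were similarly visible to the reads. Within 200 bp of the summit 78.3% of positions were unique at Hbq1b and 79.3% at Hbq1a, and of the 32 read starts that cover the whole motif 14 were unique at each. The CTCF summit lay 36 bases from the centre of the motif at Hbq1b and 103 bases from it at Hbq1a. The Rad21 summit at Hbq1b was 123 bp from the CTCF summit, the widest separation among the 13 co-bound members with a motif. Repeated read starts around this motif lay between 32186859 and 32187227. This stretch holds the CTCF summit at 32186973 but not the Rad21 summit at 32186850. Whether it bears on the separation was not tested. A read from either copy that carried a mismatch could be placed at the wrong one, and how often this occurred was not tested.

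Downstream of the α genes the sites were strong in CTCF by score. An intra-TAD anchor 45.0 kb beyond the start of Hba-x had 350 CTCF and 48 Rad21 fragments, and a TAD anchor at 48.5 kb had 474 and 120. Both motifs were on the − strand, and the deposited motif score was 22.95 at the former, the highest in the windows, and 12.7 at the latter. An other CAC site with a − strand motif at 64.9 kb had 312 and 44 fragments. It was followed after 1.67 kb by a TAD anchor with a + strand motif, the strongest CTCF peak of the windows by score, with 674 CTCF fragments and a score of 6147 above 97.4% of all CTCF peaks. This anchor had 64 Rad21 fragments and all 3 flags, and lay 4852 bp upstream of Sh3pxd2b.

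The remaining sites of the α window lay in Sh3pxd2b and were weak. The site at its start, in a coding exon, had 60 CTCF and 34 Rad21 fragments and no deposited motif. The site in an intron, 98.8 kb beyond the start of Hba-x, was a lone CTCF site with 40 fragments.

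In order along the chromosome the 7 α anchors carried their motifs on the strands + + + − − − +. The last 2 anchors were divergent, 18.1 kb apart. The nearest anchor on either side of the α genes had a − strand motif, 37.7 kb before Hba-x and 24.1 kb beyond the end of Hba-a2, so the neighbours were in tandem over 82.7 kb. The nearest + strand anchor on the upstream side was that in Rhbdf1, 59.4 kb before Hba-x. The nearest TAD anchors on each side were convergent and enclosed the α cluster together with Nprl3 in a span of 142 kb. With other CAC sites included, the co-bound sites with a motif nearest to Hba-x on either side were the + strand site at the start of Nprl3 and the − strand site at Hbq1b, 19.4 kb apart and convergent by the deposited strands. They enclosed Hba-x and Hba-a1 but not Hba-a2. At the + strand site of this pair the learnt matrix found its best match on the − strand instead, 191 bases from the summit and near the cutoff, so that this strand is uncertain. Over the 14 α sites with a deposited motif the learnt matrix gave the deposited strand at 13.

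**Figure D3:**
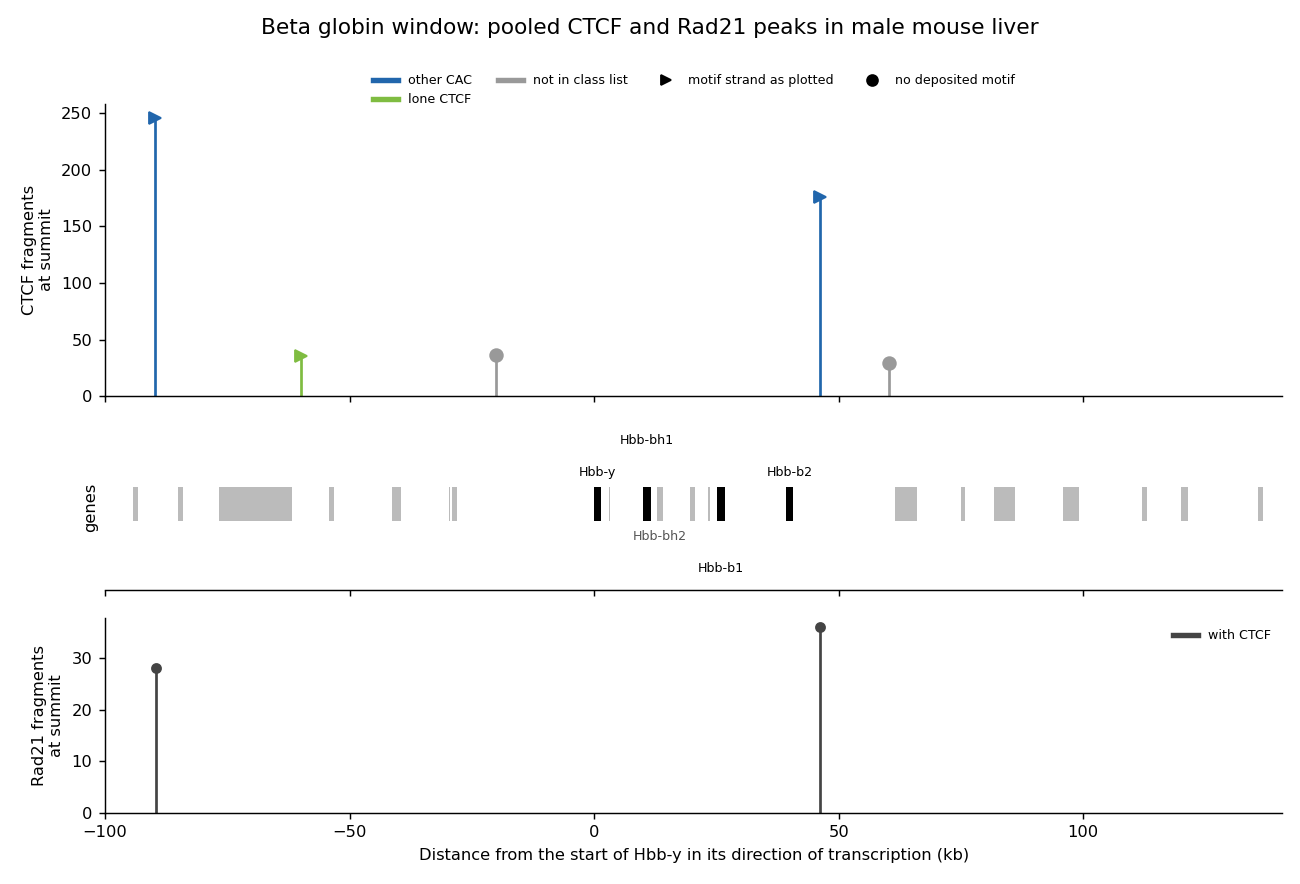
CTCF fragments (top), genes (middle, member genes in black and others in grey) and Rad21 fragments (bottom) against the distance in kb from the start of Hbb-y along its direction of transcription, which runs toward lower coordinates. Arrowheads pointing right are − strand motifs in the genome. The sites with 176 and 246 CTCF fragments and the only Rad21 peaks, of 36 and 28 fragments, stand outside the globin genes on either side.

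The β genes were flanked by 1 co-bound site on each side and by no anchor. Beyond Hbb-b2, the last gene of the cluster, an other CAC site lay 5.42 kb past the gene's end, with 176 CTCF and 36 Rad21 fragments. Its score of 1815 exceeded 77.98% of CTCF peaks. It carried the Stag1 and Stag2 flags but not Top2b. Upstream of Hbb-y the nearest co-bound site was 89.7 kb away, 3602 bp from the start of Olfr633, with 246 CTCF and 28 Rad21 fragments, and it carried all 3 flags. Its fold of 26.9 over local background and that of 24.4 at the Hbb-b2 flank were above the fold of 22.1 at Hbq1b and below that of 33.2 at the distal upstream TAD anchor of the α locus, the highest in the windows, and exceeded 96.8% and 93.6% of CTCF peaks.

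Between them lay peaks with CTCF alone. A peak outside the class list, 20.05 kb upstream of Hbb-y, had 36 fragments and a match of the learnt matrix just above the cutoff. A lone CTCF site 59.9 kb upstream of Hbb-y, 1887 bp from the start of Olfr631, had 35 fragments despite a motif score of 18.98, above that of the Hbb-b2 flank site (17.9). Neither overlapped Rad21, as was true of 52.4% of CTCF peaks of like score.

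All 3 β sites with a deposited motif were on the − strand, as were 50.1% of motif sites in the class list, so that the co-bound sites on the flanks of the cluster were in tandem over 136 kb. The learnt matrix gave the same strand at 3 of 3. The CTCF peak of the windows that was weakest by score and fragments, though not by fold, stood apart. It lay 60.2 kb beyond the start of Hbb-y, on the far side of Hbb-b2 and 1233 bp upstream of Olfr67, with 29 fragments, a score of 94 and no class, and was therefore without a deposited strand. Its sequence matched all 8 fixed letters of the consensus on the + strand with a matrix score of 20.8, higher than at the 3 classed β sites (16.3 to 20.4). Of the 3093 unclassed CTCF peaks on chromosomes 7 and 11, 8.79% had a match at least as good. No Rad21 peak overlapped it.

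The next anchors were far from the β genes. On the side beyond Hbb-b2 the nearest TAD anchor was 1147 kb from the cluster, and on the side upstream of Hbb-y it was 347 kb away, with a score of 9424. Both had + strand motifs. The nearest CTCF peak outside the window was 793 kb past its edge on the former side and 247 kb past it on the latter, where it was that TAD anchor. Within it the widest interval between neighbouring CTCF summits, 66.2 kb, enclosed all 4 β members, and 9.55% of the intervals between CTCF peaks genome-wide were longer. For Rad21 the interval was 136 kb, with 4.61% longer. The CTCF interval was the widest of 4 and the Rad21 interval the only 1, whereas the comparison was with all single intervals. The β gene cluster inside both was unique at 80.4% of positions. Within the Rad21 interval the unique share fell to 0% at 68.5 kb upstream of Hbb-y. Repeated positions there could not be seen. In the α window the widest intervals were 27.3 kb for CTCF and 34.5 kb for Rad21, and the latter ran from Hbq1b past Hba-a2.

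By score, the balance of Rad21 to CTCF differed along the α locus. Since Rad21 rises with CTCF over the whole list, the co-bound CTCF peaks were divided into 10 equal groups by CTCF score, and each member was set against the quartiles of Rad21 score in its group. This comparison was chosen after the values had been seen. Of the 7 co-bound sites upstream of Hba-x, 0 were below the lower quartile, 6 were between the quartiles and 1, the Nprl3 intra-TAD anchor, was above the upper quartile. Of the 6 co-bound sites downstream of the Hba-x start, 4 were below the lower quartile, namely those at Hbq1b, 45.0 kb, 64.9 kb and 66.6 kb. Both β sites were below it as well. Over the whole list 24.7% of co-bound CTCF peaks were below the lower and 24.9% above the upper quartile of their group, values that the construction sets. With fragments in place of score, a choice also made after the values had been seen, 0 of the 7 upstream and 5 of the 6 downstream α sites were below the lower quartile. With fold the contrast was smaller, as 1 upstream site (the Rhbdf1 intron) and 2 downstream sites (Hbq1b and 66.6 kb) were below it, and 3 upstream sites and 1 downstream site were above the upper quartile. Both β sites were below the lower quartile by each of the 3 measures.

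The sizes of these departures varied. The Sh3pxd2b TAD anchor, with a CTCF score of 6147, had a Rad21 score of 339 where the lower quartile of its group was 844, so that 7.05% of its group was lower. The Olfr633 site had a Rad21 score of 101 against a lower quartile of 343, with 3.53% lower. At the 45.0 kb anchor 10.7% were lower and at the Hbb-b2 flank 17.2%. The Hbq1b and 64.9 kb sites, with 22.5% and 22.1% lower, were close to the quartile. As a plain ratio of scores, CTCF exceeded Rad21 by a median factor of 4.43 in the α window (1.08 to 18.1). The ratio was 11 and 25.8 at the β sites, and its median was 2.31 in the whole list. Over the whole list this ratio depended on CTCF score. The group medians of CTCF and Rad21 were 55 and 101 in the lowest group, and 1627 and 415 in group 7. The value of 2.31 is therefore not one for sites of like CTCF score.

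**Figure D4:**
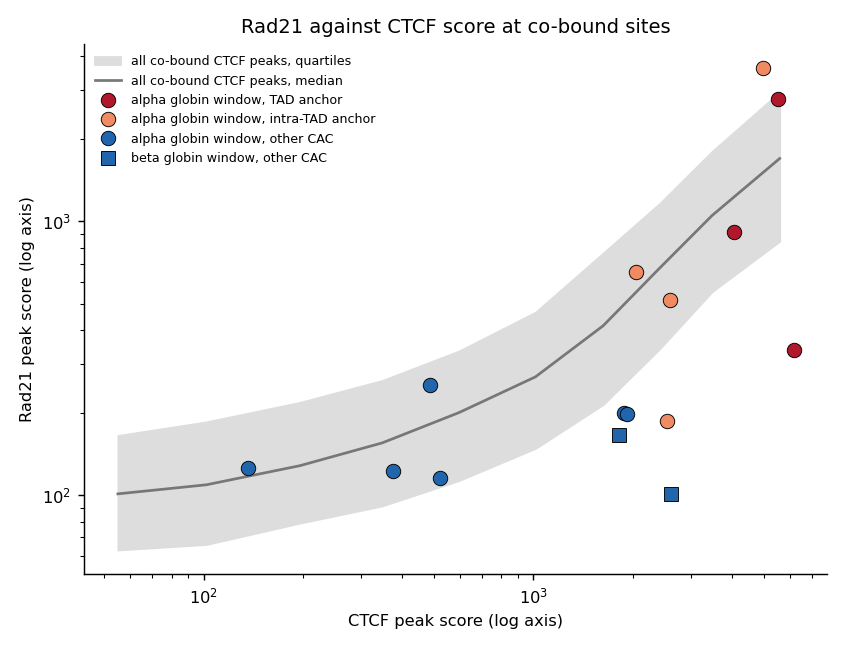
Rad21 score against CTCF score at the 15 co-bound sites, both on log axes, coloured by class with circles for the α and squares for the β window. The line and the grey band are the median and the quartiles of all co-bound CTCF peaks in 10 groups of CTCF score. The 2 β sites and 4 α sites lie below the band, and the Nprl3 intra-TAD anchor, with a Rad21 score of 3618, lies above it.

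The flags from other data did not always follow Rad21 in these livers. All 3 TAD anchors and 2 of the other CAC sites of the β window carried Stag1 and Stag2, and of the 4 intra-TAD anchors 3 carried Stag1 and 4 Stag2. Of the 6 other CAC sites of the α window, however, 2 carried Stag1, 3 Stag2 and 1 Top2b. Over all class-list sites the flags were present at 70.6%, 88.1% and 54.8%, and over the other CAC sites alone, each with Rad21, at 75.3%, 95.5% and 58.0%. The 3 α sites that lacked both Stag flags despite a Rad21 peak were those in the Rhbdf1 intron, at Hbq1b and at the start of Sh3pxd2b, with 46, 40 and 34 Rad21 fragments. Outside the lone class 3.50% of sites lacked both.

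The Rad21 summit was displaced toward the 3′ end of the motif at 11 of the 13 co-bound sites with a deposited motif, and at 68.3% of such sites in the whole list. The median distance from the CTCF summit was 21 bp (range −5 to 123 bp), against 17 bp in the whole list (quartiles −7 and 41 bp). At the Nprl3 intra-TAD anchor it was 26 bp, and at the β sites 24 and 58 bp. The maximum of 123 bp was at Hbq1b, where repeated sequence lies beside the Rad21 summit.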

How the data were processed

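ChIP libraries of male mouse liver, 4 for CTCF and 3 for Rad21, were analysed through 3 lists. Per the study's methods and the labels, the authors mapped single-end reads of 50 bases to mm9 with Bowtie2, kept unique positions, called peaks with MACS2 on reads merged per factor and removed blacklisted regions. The deposited columns used were the peak score, the fold (a ratio to local background with a pseudocount of 1), the −log10 p, and, per class-list site, class, motif score, motif strand and overlap flags. The flag columns have no header, and were read in the sequence the study lists them. Sites of that list were found by the authors in at least 2 livers. Depth per library at a peak is unknown.

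The summit fragment number and its local background were solved from fold and −log10 p under a Poisson model. They came out whole within 0.05 at 99.996% of CTCF and 99.997% of Rad21 peaks, and at 38 of 38 members. Genes were taken from GENCODE vM1. Co-binding needed 1 bp of overlap. All 22 chromosome names matched the reference and 0 peaks passed a chromosome end. A motif matrix of 19 positions was learnt from 5199 TAD anchors on chromosomes other than 7 and 11, and searched over each whole peak. On those 2 chromosomes its best match had the deposited strand at 90.0% of all 6034 sites with a deposited motif, and at 97.6% of the 4785 above the cutoff. Read uniqueness was counted from exact copies on both strands. Shares carry 95% Wilson intervals. No test between groups was possible, as pooled lists hold 1 value per peak, and 0 p-values were computed. The scripts were tested on simulated data. The tools were samtools 1.23.1 and Python 3.11.15 with pandas 2.3.3, Matplotlib 3.10.9, NumPy 2.4.6, pysam 0.24.0, SciPy 1.17.1 and Numba 0.67.0.

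The members, lists and comparisons were chosen with earlier results of these data known. Named genes were the 7 members, other globin genes, protein-coding genes with a summit in the body or within 1 kb of the start, and the gene nearest to each class-list site. Peaks in full were the class-list sites, the strongest peak of each factor, peaks within 5 kb of a member and the nearest motif sites on each flank. The unclassed peaks and the CNC peak were named after their values were seen.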

Additional observations from a re-analysis of the deposited data

How the results depend on the processing

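The window width, the use of summits to place peaks in it, a score minimum, the overlap rule, the strength measure, the source of the motif strand and the read length were changed 1 at a time, which gave 95 alternative values for 53 results, and 77 kept their place. With an extension of 50 kb the α window held 11 CTCF, 8 Rad21 and 0 CNC peaks and the β window 3 and 1, and with 200 kb the α window held 28 CTCF peaks. The β densities with 200 kb, 1.13 CTCF and 0.454 Rad21 peaks per 100 kb, were below those with 100 kb by over 1.5 times. The α CNC count was 2 when summits had to lie within 100 bp and 0 with a score of at least 100. The median β Rad21 peak exceeded 42.7% of all Rad21 peaks by score, but 54.3% by fold and 50.3% with 50 kb, where 1 peak was left. By fold, the Rhbdf1 intron site and the Mpg site exceeded 46.3% and 41.03% of CTCF peaks, below the median of the list, against 58.6% and 53.1% by score. By fold 1 α and 2 β CTCF peaks were in the top 10%, against 4 and 0 by score. For Rad21 at a given CTCF strength, fold (added after seeing the data) left 2 in place of 4 downstream and 1 in place of 0 upstream α sites below the lower quartile, with 1 in place of 0 and 3 in place of 1 above the upper. Fold divides by local background. The recovered CTCF background had a median of 17.0 fragments in the α window (5.99 to 31.7) and 5.99 in the β window (5.99 to 8.17). Whether this is the cause of the values by fold was not tested. Co-bound shares stayed within their intervals under each alternative, and with reads of 36 bases the unique share of each member stayed within 1.5 times its value. No paired analysis was possible because the lists pool all libraries of a factor and carry no replicate number, and a library could not be left out.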
